A study of Mus musculus with 26 samples.

Results

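Microglia sorted from the nucleus accumbens (NAc) of unstressed wild-type mice were compared with microglia sorted from the medial prefrontal cortex (mPFC) of unstressed wild-type mice. The comparison used 3 NAc arrays and 3 mPFC arrays, which are 6 of the 26 arrays of the study, and they were chosen by their region, genotype and treatment labels. Both groups came from CX3CR1EGFP/+ mice on a C57BL/6 background, in which one copy of the Cx3cr1 gene is replaced by EGFP, so every mouse carried a single working copy of this microglial chemokine receptor. The naive condition was a transfer between cages, and the other groups of the study were TLR-DKO; CX3CR1EGFP/+ mice and mice given repeated social defeat stress (R-SDS), again in NAc and mPFC. Mice were perfused 90 min after the last exposure, tissue was taken with a 1.5 mm punch, and EGFP-positive cells of 3 to 6 mice were pooled to reach 500 pg of total RNA, which was amplified, given a Cy3 label and read on one-colour mouse arrays from Agilent.

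Microglia are the resident macrophages of brain tissue. They depend on signalling through the Csf1r and TGF-beta receptors and on the transcription factors Spi1, Irf8 and Sall1, and they are known to differ between brain regions in density and shape. Perivascular macrophages are a separate population along blood vessels. They carry scavenger receptors such as Mrc1 and Cd163, which microglia largely lack, but they also express Cx3cr1, so a sort on CX3CR1-EGFP alone can hold both. In such bulk samples, fewer cells of a type and less RNA per cell cannot be told apart.

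Values are log2 of the processed signal minus the 75th percentile of the same array, so that 0 marks a fixed rank of brightness within each array. The 75th percentile itself was 156.3, 179.8 and 259.0 signal units on the NAc arrays, against 224.5, 127.7 and 340.5 on the mPFC arrays. The share of spots well above background was 54.9% to 62.9% in NAc and 54.0% to 71.0% in mPFC. Slides 3 and 4 held NAc arrays and slides 1 and 2 held mPFC arrays, so slide and region cannot be told apart. The scans fell on 2 days: NAc replicate 1 and mPFC replicates 1 and 2 were read on the first day, and NAc replicates 2 and 3 and mPFC replicate 3 on the second. Labels call the samples replicates from 2 experiments with different mice and do not tie each pool to an experiment, so a p measures the spread between these pools.

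The arrays of one region were hardly more alike than arrays of different regions. Across genes within each pair of arrays, Pearson's r was 0.862 to 0.909 (median 0.877) for the 6 pairs from the same region and 0.849 to 0.931 (median 0.868) for the 9 pairs across regions. Genes are not independent replicates, and the pairs share arrays, so these values are a description. The highest r of all, 0.931, joined a NAc array with an mPFC array read on the same day.

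The markers that define microglia were bright in both regions and close in level. Cx3cr1 measured 8.37, 8.74 and 8.15 on the NAc arrays, against 8.38, 8.70 and 7.99 on the mPFC arrays. The difference, NAc minus mPFC, was 0.07 ± 0.34 (SE of the fit, n = 3 each). Tmem119, a membrane protein specific to microglia within the brain, averaged 6.91 ± 0.10 in NAc and 7.09 ± 0.30 in mPFC (SD, n = 3 each). P2ry12, the ADP receptor that guides microglial processes, averaged 5.02 ± 0.25 in NAc and 5.24 ± 0.63 in mPFC. The survival receptor Csf1r stood at 8.32 ± 0.42 in NAc and 8.59 ± 0.46 in mPFC, a difference of -0.26, and another of its probes gave 0.29. For each of these 4 genes the 2 groups of arrays overlapped.

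Across the test as a whole, limma's moderated test on all 26 arrays found 0 of 21988 genes past an adjusted p of 0.05 between naive NAc and naive mPFC microglia (0%). The smallest adjusted p was 0.507. At an unadjusted p under 0.05 there were 1261 genes, 5.73% of those tested, with 514 higher in NAc (2.34%) and 747 lower (3.40%). The arrays of the 2 regions did not overlap for 1315 genes higher in NAc (5.98%) and 1414 genes lower in NAc (6.43%). The median difference over all genes was -0.02, and the typical SD among arrays of a group was 0.56. Leaving out NAc replicate 3 let 1 gene pass: Pja1, an E3 ubiquitin ligase, then had a difference of -6.12 (adjusted p = 0.0379), which was -3.98 with all arrays. Pja1 is named here because of that result, after its values were seen.

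No member of the list of 30 homeostatic microglial genes passed the test. All 30 were tested, of which 13 were above 0 and 17 below 0, beside 48.3% above 0 over all genes tested, and their median difference was -0.03. The mean over the list lay between 5.71 and 6.05 on the NAc arrays and between 5.75 and 6.16 on the mPFC arrays. The arrays did not overlap for 1 of the 30, beside 5.98% of all genes tested that were higher without overlap and 6.43% lower. That member was Sall1, the transcription factor that maintains microglial identity. Sall1 measured 5.68, 5.36 and 5.20 in NAc, against 4.74, 4.85 and 5.04 in mPFC. Its difference of 0.54 ± 0.29 had an unadjusted p of 0.0783 and an adjusted p of 0.885.

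Among 19 tested lineage transcription factors, 13 were above 0 and 6 below 0, with a median of 0.26. Cebpa, a factor of myeloid differentiation, measured 6.20, 6.98 and 6.12 on the NAc arrays, against 5.25, 4.81 and 5.41 on the mPFC arrays. All 3 NAc values were above all 3 mPFC values, and the difference was 1.27 ± 0.59 (unadjusted p = 0.0412, adjusted p = 0.871). Batf3, which is known for its part in dendritic cell development, was on the other side at -2.72 ± 1.38, with -3.86, -1.50 and -2.28 in NAc, against 0.69, -1.08 and 0.91 in mPFC. Spi1, which encodes the macrophage factor PU.1, averaged 2.74 ± 0.64 in NAc and 3.31 ± 0.63 in mPFC. Irf8 averaged 3.73 ± 0.07 in NAc and 3.75 ± 0.81 in mPFC, and both regions overlapped for Spi1 and Irf8.

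The TGF-beta pathway keeps microglia in their adult state. Of its 15 tested genes, 10 were above 0 and 5 below 0 (median 0.15), and 0 passed the test. The receptor gene Tgfbr1 averaged 7.10 ± 0.55 in NAc and 6.84 ± 0.21 in mPFC, a difference of 0.26, and another of its probes gave -0.14. The ligand gene Tgfb1 averaged 1.57 ± 0.73 in NAc and 1.08 ± 0.69 in mPFC. Acvr1b, an activin receptor, was the member farthest from 0: it measured 1.05, 1.02 and 1.01 in NAc, against -2.42, -4.25 and 0.70 in mPFC, a difference of 3.02 ± 1.59 (adjusted p = 0.885). The mPFC arrays themselves spread widely for this gene, and mPFC replicate 3 came close to the NAc arrays.

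The genes with the smallest p included several that were measured in one region and not well above background in the other. They are described as values, since none passed the adjusted threshold and their adjusted p ranged from 0.507 to 0.684. With only probes well above background on all 6 arrays, the smallest adjusted p was 0.992 (limma). Ppp1r16b, a subunit that directs protein phosphatase 1, measured 0.70, -0.79 and -0.60 on the NAc arrays, against -4.38, -3.88 and -5.48 on the mPFC arrays. None of the mPFC arrays had it well above background, so NAc was at least 13.7-fold higher. This bound sets the mean of the bright group against the higher, on each dim array, of the probe's own value and the lowest signal among probes well above background. Hilpda, a lipid droplet protein induced by hypoxia, measured 0.41, -0.68 and 0.00 in NAc, against -6.18, -5.48 and -6.63 in mPFC, which is at least 15.1-fold higher in NAc. Nln, a metallopeptidase that cleaves neurotensin, was at least 3.99-fold higher in NAc by the same bound. Apart from Gm13375, Dmrtb1 and Slc35c1, the genes named in this direction entered the test through the NAc arrays alone. Such a way in favours genes higher in NAc.

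**Figure D1:**
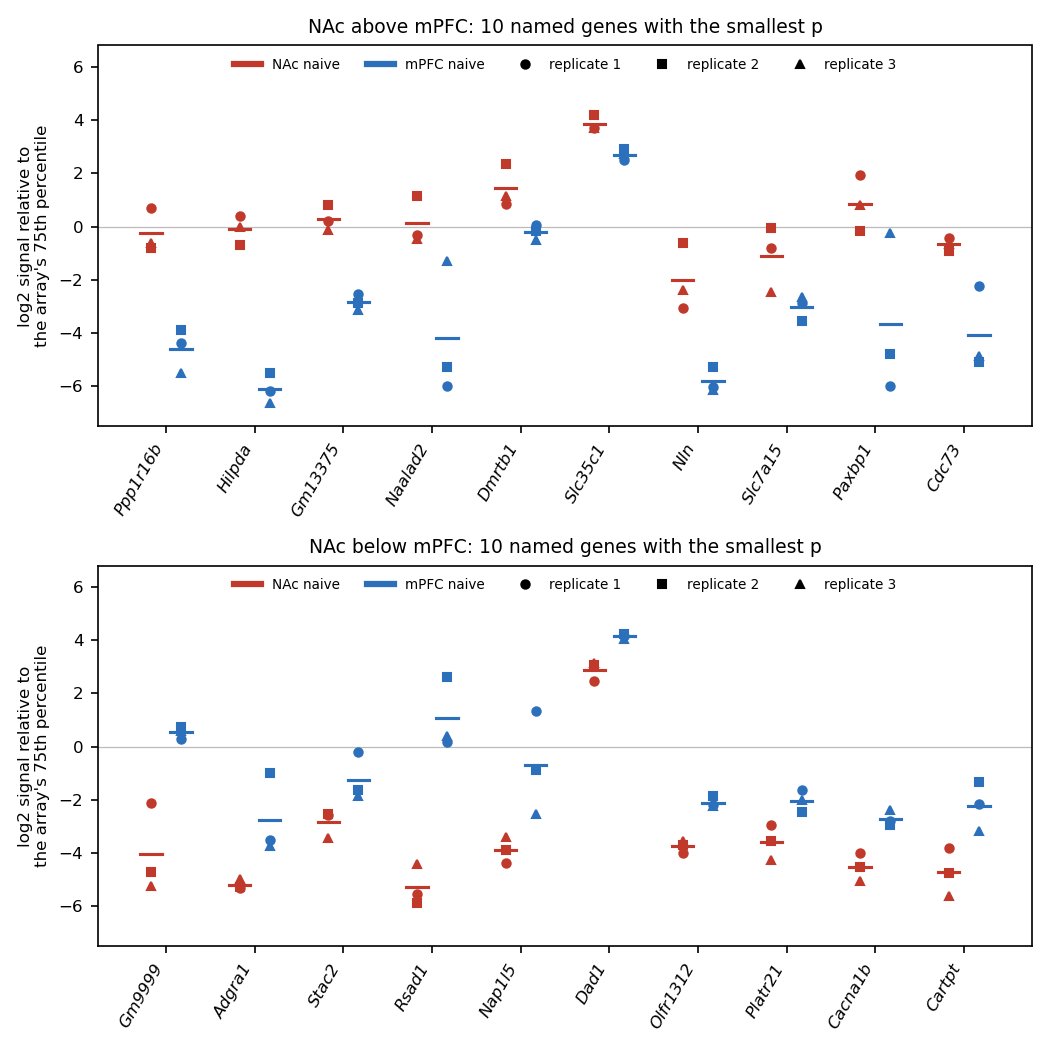
Values of the 20 named genes with the smallest unadjusted p in the naive wild-type comparison, 10 above 0 in the upper panel and 10 below 0 in the lower panel, on each NAc array (red, left of each pair) and each mPFC array (blue). The vertical axis is log2 signal above or below that array's 75th percentile, symbols mark the replicates, and the short lines are group means. The arrays of the 2 regions do not overlap for any of these genes, which was a condition of their choice, and none passed the adjusted threshold.

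Slc35c1, the GDP-fucose transporter of the Golgi, stood out in the same set for its tight arrays: it measured 3.69, 4.19 and 3.70 in NAc, against 2.49, 2.91 and 2.73 in mPFC. That difference was 1.15 ± 0.31 (unadjusted p = 0.00144, adjusted p = 0.684). Cdc73, a subunit of the Paf1 complex of transcription elongation, differed by 3.39 ± 1.01, and Paxbp1, a PAX-binding protein, by 4.52 ± 1.33. For Paxbp1 the size came from 2 of the mPFC arrays, since mPFC replicate 3 measured -0.22 while the NAc arrays ran from -0.15 to 1.92. The other members above 0 were Gm13375 (3.14), Slc7a15 (1.90), a member of an amino acid transporter family, and Naalad2 and Dmrtb1, which are described below. Another Slc7a15 probe, well above background on 1 array of each region, gave -1.66. A further one, dim on all 6 arrays, gave 0.20.

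On the other side, Rsad1, a radical SAM domain protein, measured -5.54, -5.86 and -4.41 in NAc, against 0.18, 2.62 and 0.41 in mPFC. No NAc array had it well above background, so it was at least 28.2-fold lower in NAc. Dad1, a subunit of the oligosaccharyltransferase that N-glycosylates proteins, was bright in both regions, with 2.46, 3.07 and 3.15 in NAc, against 4.17, 4.22 and 4.04 in mPFC (difference -1.25 ± 0.31, unadjusted p = 0.000568, adjusted p = 0.684). Both groups were tight for Dad1, and every NAc array lay below every mPFC array. Cacna1b, the pore subunit of the N-type calcium channel, was at least 2.05-fold lower in NAc, and Cartpt, the precursor of the CART neuropeptide, at least 2.89-fold lower. Adgra1, an adhesion receptor, was at least 2.01-fold lower in NAc. Apart from Dad1 and Stac2, the genes named in this direction entered the test through the mPFC arrays alone. Such a way in favours genes lower in NAc. The remaining members below 0 were Gm9999 (-4.56), Nap1l5 (-3.19), a nucleosome assembly family member, Olfr1312 (-1.63), Stac2 (-1.61) and Platr21 (-1.55). A second Nap1l5 probe, well above background on 1 NAc array and 2 mPFC arrays, gave 0.21.

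The list farthest from 0 was that of perivascular macrophage markers. Of its 14 genes, taken without any filter on brightness, 13 were below 0 and 1 above, with a median difference of -2.29, beside a median of 0.01 and a share of 49.0% below 0 over all 36750 genes on the array. With the filter, 12 members were tested, of which 11 were below 0, against 51.7% of all genes tested. Of those tested, 7 entered through the mPFC arrays alone, a way in that favours genes lower in NAc. The 5 members well above background on every one of the 6 arrays were Stab1, Maf, Folr2, Dab2 and Cd209f. Their median was -2.03, and 4 of the 5 were below 0.

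Individual members varied among the NAc arrays. F13a1, the coagulation factor XIII A chain made by macrophages, measured 0.07, -5.88 and -6.24 in NAc, against 1.46, 0.44 and 2.29 in mPFC. NAc replicate 1 lay just under the mPFC arrays and the other 2 NAc arrays were not well above background. Clec10a, a galactose-binding lectin of macrophages, had the same form, with 1.44, -5.73 and -6.14 in NAc, against 3.27, 3.30 and 2.56 in mPFC. Ms4a7, a membrane protein of border macrophages, measured -4.39, -5.28 and -4.91 in NAc, against 0.50, -0.29 and -2.90 in mPFC, and was at least 7.21-fold lower in NAc by the bound used above.

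The mannose receptor Mrc1 measured -0.06, -2.27 and -5.84 in NAc, against -1.40, 0.33 and -0.57 in mPFC, so its arrays overlapped. Dab2, an endocytic adaptor, measured 1.54, -3.41 and -0.69 in NAc, against 3.57, 3.66 and -0.77 in mPFC, and the lowest mPFC array fell within the NAc range. Pf4, a platelet-type chemokine also made by these macrophages, differed by -2.77, and the lectin Cd209f by -2.41. Folr2, a folate receptor, measured -3.03, -2.88 and -1.73 in NAc, against -2.40, 0.47 and 0.39 in mPFC. The members nearest to 0 were Siglec1 at -0.72 and Stab1 at -0.20, and Maf, a transcription factor that microglia also express, was the 1 member above 0 at 0.40. The markers Lyve1 and Cd163 were not tested. Lyve1 was not well above background on any NAc array and was so on 2 of 3 mPFC arrays, and Cd163 on 0 NAc arrays and 1 mPFC array.

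**Figure D2:**
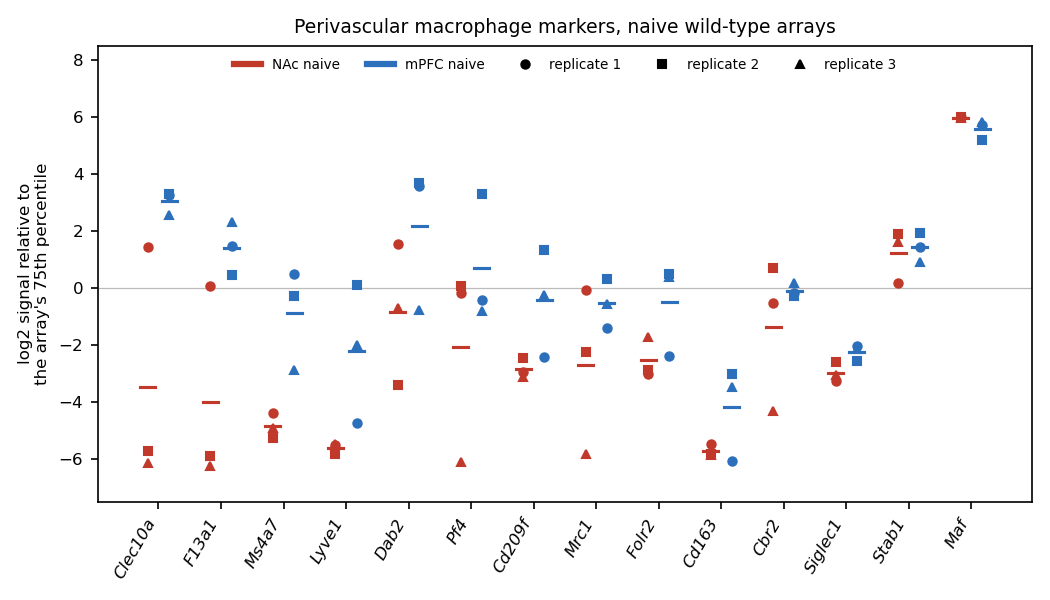
The 14 perivascular macrophage markers on the 3 NAc arrays (red, left of each pair) and the 3 mPFC arrays (blue) of naive wild-type mice, ordered by the difference of the group means. The vertical axis is log2 signal above or below that array's 75th percentile, with short lines at group means. The NAc mean lies below the mPFC mean for 13 of the 14 genes, Maf is the exception, and NAc replicate 1 lies near the mPFC arrays for F13a1, Clec10a and Mrc1.

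Averaged over the 12 tested markers, the array mean was -0.44, -1.83 and -2.88 in NAc, against 0.59, 1.39 and 0.39 in mPFC, so the regions did not overlap. Over all 14 markers without the filter it was -1.16, -2.40 and -3.28 in NAc, against -0.27, 0.99 and -0.06 in mPFC. Over the 5 markers well above background on every array it was 0.34, -0.18 and 0.40 in NAc, against 1.18, 2.51 and 1.22 in mPFC. Neither of these sets overlapped between the regions. The list's median was -1.57 on the first scan day and -2.20 on the second, and leaving out 1 array at a time gave -2.93 to -1.51. Among the lists for other cells, the tested markers of endothelial and mural cells had a median of -0.08, those of monocytes 0.22, of astrocytes -0.15, of oligodendrocytes 0.11 and of T and NK cells -0.02. Lists with 3 tested markers each gave -0.41 for B cells and -0.37 for erythroid cells. The erythroid array means did not overlap either, with -2.19 to -1.61 in NAc and -1.54 to -1.22 in mPFC. Within those lists Cldn5, the tight junction protein of brain endothelium, differed by -1.28 ± 0.45 and Gfap, the astrocyte filament protein, by -2.34 ± 0.92. Their arrays did not overlap, with unadjusted p of 0.00934 for Cldn5 and 0.0191 for Gfap, and adjusted p of 0.771 and 0.843 (limma). Both lists had members on either side of 0. Of 10 tested endothelial and mural markers 3 were above 0 and 7 below, and of 10 astrocyte markers 5 and 5. Each list also held 1 member higher in NAc without overlap, which was Slc4a4 at 0.70 for astrocytes. The part of vessel-associated cells in the macrophage marker difference was not tested.

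In the other 3 region pairs of the study the perivascular markers also had medians below 0. The median over the 12 markers was -1.76 between R-SDS wild-type groups, -2.47 between naive TLR-DKO groups and -1.56 between R-SDS TLR-DKO groups. These pairs use other arrays than the naive wild-type pair, but the arrays lie on the same 4 slides. The array means of the 12 markers overlapped in both R-SDS pairs: the highest NAc mean was -0.03 in wild type and 0.14 in TLR-DKO, and the lowest mPFC mean was -0.35 in wild type and -0.80 in TLR-DKO. In the naive TLR-DKO pair they did not overlap, with NAc at most 0.12 and mPFC at least 0.26. F13a1 was the marker that passed the test over the mean of those 3 pairs, at -5.59 ± 1.11 (limma, adjusted p = 0.0463). The call was lost with 18 of the 20 other arrays when each was left out in turn, with an adjusted p of up to 0.109. The difference was also uneven between scan days: it was -8.36 on the second day and -0.88 on the first day in naive wild-type microglia. Over all groups F13a1 was well above background on 5 of 13 NAc arrays and on 13 of 13 mPFC arrays.

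Class II antigen presentation genes, which border macrophages carry at a higher level than resting microglia do, lay on both sides of 0. Of the 9 tested class II genes of the antigen presentation list, 6 were below 0 and 3 above, with a median of -0.11. The arrays did not overlap for 3, all lower in NAc, beside 6.43% lower without overlap over all genes tested. These 9 were counted after their values were seen. H2-Ab1, a class II beta chain, measured -1.65, -0.53 and -0.33 in NAc, against 2.81, 2.92 and 2.59 in mPFC. The groups were well apart, and the difference was -3.62 ± 1.20 (unadjusted p = 0.00658, adjusted p = 0.723). H2-Eb1, the other beta chain, measured -1.56, -2.78 and -2.69 in NAc, against -0.44, 0.12 and 0.39 in mPFC. Cd74, the invariant chain, measured 0.79, 0.48 and 0.57 in NAc, against 1.60, 3.17 and 1.53 in mPFC. For these 3 genes every NAc array lay below every mPFC array. H2-DMb2, a chain of the class II peptide-loading factor, was on the other side at 2.07 ± 1.72, with -0.54, -2.83 and -0.08 in NAc, against -5.43, -2.30 and -1.95 in mPFC, and its arrays overlapped. The alpha chain gene H2-Aa was at -0.11 ± 1.54.

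Over the whole list of 21 tested antigen presentation genes, 10 were above 0 and 11 below, with a median of -0.07. Psmb9, an immunoproteasome subunit, was on the other side at 1.39 ± 0.45, with 4.15, 3.87 and 3.76 in NAc, against 1.73, 2.82 and 3.06 in mPFC. The mean of the perivascular markers was lower in NAc alongside H2-Ab1, H2-Eb1 and Cd74. The NAc array with the highest mean of those markers, replicate 1, had the lowest H2-Ab1 of the 3, and the highest H2-Eb1 and Cd74. The part of perivascular macrophages in the differences of these 3 genes was not tested.

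Immune receptors and effectors otherwise lay on both sides of 0, and 0 of them passed the test. Of 26 tested genes of Toll-like receptor signalling, 14 were above 0 and 12 below (median 0.09). Tlr2, a receptor for bacterial lipoproteins, averaged 1.89 ± 0.28 in NAc and 1.90 ± 0.60 in mPFC. Its probe was not well above background on any TLR-DKO array, as those labels would have it. Tlr4, the lipopolysaccharide receptor, averaged 2.67 ± 0.49 in NAc and 2.18 ± 0.55 in mPFC. Its probe was well above background in every group, TLR-DKO included, and where it lies relative to the deleted part is not known here.

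Irf7, the factor that amplifies interferon responses, measured -2.66, -3.41 and -3.54 in NAc, against -2.34, -1.24 and -0.23 in mPFC (difference -1.93 ± 0.67, adjusted p = 0.771). The type I interferon list had 8 of 17 tested genes above 0 and a median of -0.02. C1qa, a chain of the complement starter C1q, measured 6.53, 7.46 and 6.73 in NAc, against 6.47, 6.17 and 6.44 in mPFC, a difference of 0.55 ± 0.29 (adjusted p = 0.885). Ccl24, an eotaxin chemokine, was at -3.06 ± 1.01, Vcam1, an adhesion molecule, at -2.87 ± 1.31 and the scavenger receptor Cd36 at -2.81 ± 1.03. The arrays of the 2 regions did not overlap for Ccl24, Vcam1 or Cd36, and their adjusted p were 0.723, 0.871 and 0.807.

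Among all 45 lists, the mean over the tested members did not overlap between the regions for 6, of which 2 were higher in NAc and 4 lower. Among single genes tested, 5.98% were higher without overlap and 6.43% lower. A list mean averages over several genes, so these shares are not a background rate for lists. The lists lower in NAc were the perivascular, erythroid, disease-associated and cholesterol lists, and the lists higher were the cell cycle and heat shock lists. The cell cycle list was barely apart, with a lowest NAc mean of -0.0971 and a highest mPFC mean of -0.0977. Its median difference was 0.24 over tested members, but -0.06 over those well above background on all 6 arrays. Disease-associated microglial genes averaged 2.87 to 2.93 on the NAc arrays and 3.19 to 3.28 on the mPFC arrays. Heat shock chaperones averaged 2.85 to 3.34 on the NAc arrays and 2.58 to 2.79 on the mPFC arrays. The median difference of both lists changed sign between scan days. It was -0.20 on the first day and 0.31 on the second for disease-associated genes, and -0.20 and 0.27 for heat shock chaperones. Disease-associated genes had 6 of 23 tested members above 0 and a median of -0.17, with Apoe, the lipid carrier, averaging 5.05 ± 1.08 in NAc and 5.72 ± 0.44 in mPFC. Immediate early genes had 15 of 27 above 0 and a median of 0.31, and their member Npas4, an activity-induced factor of neurons, measured 0.60, 1.68 and 0.50 in NAc, against 0.08, -0.67 and -0.61 in mPFC. Cytosolic ribosomal proteins had 26 of 66 above 0 and a median of -0.04, which was -0.44 on the first scan day and 0.62 on the second. Oxidative phosphorylation had a median of -0.13 over 52 genes, the proteasome -0.21 over 35 and cholesterol genes -0.31 over 19. Lysosomal genes had a median of 0.07 over 38 tested. None of the members of these lists passed the test.

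**Figure D3:**
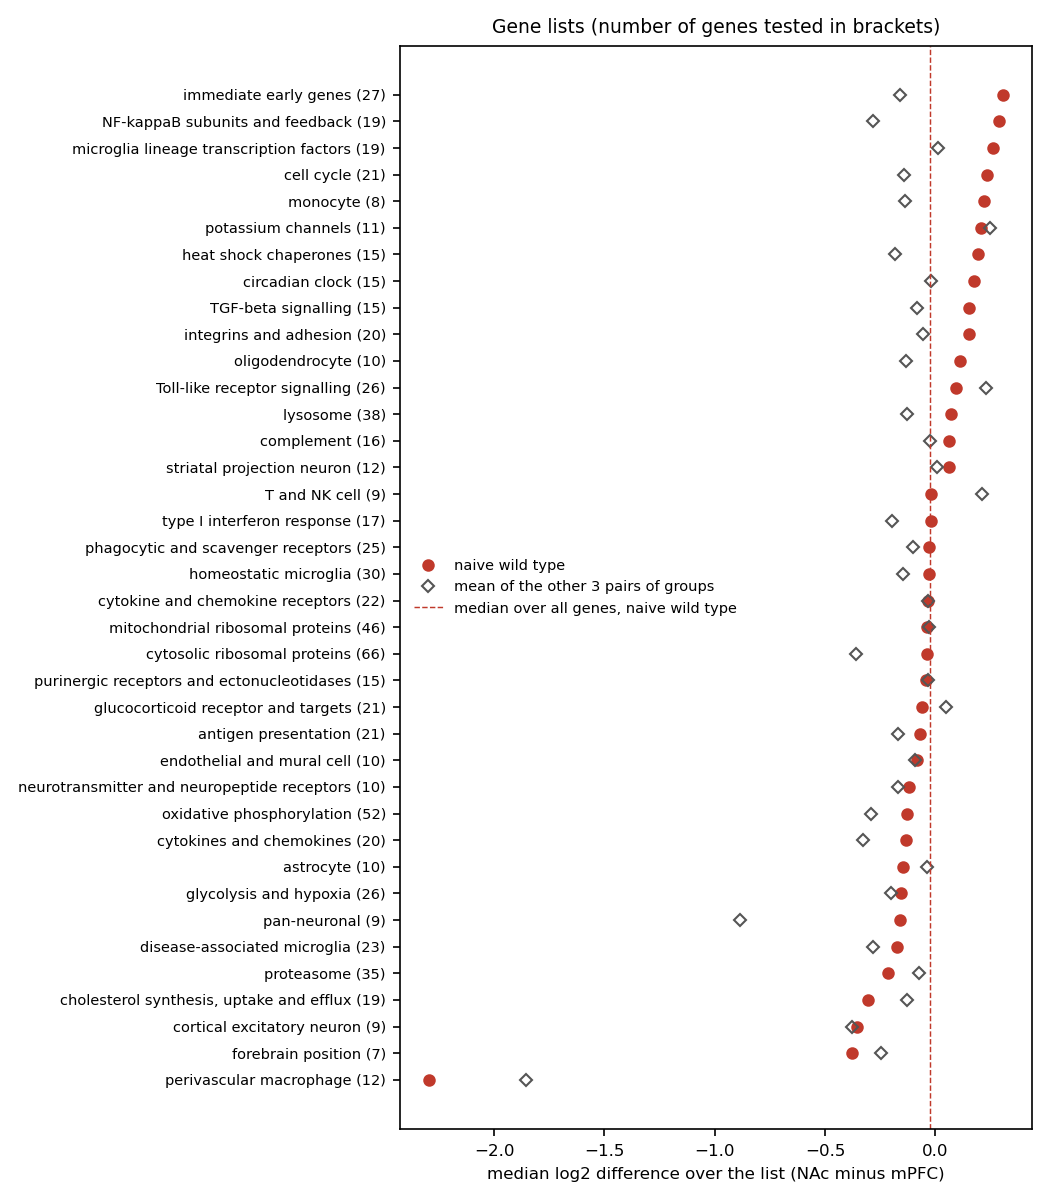
Median log2 difference, NAc minus mPFC, over the tested members of each gene list with at least 5 tested genes, in naive wild-type microglia (red circles) and in the mean of the other 3 region pairs (open diamonds). The dashed line is the median over all genes tested in naive wild type, -0.02. The perivascular macrophage list lies at -2.29 and -1.86, and the others lie within about 1 log2 unit of 0.

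Neuronal marker genes varied in brightness, and 0 passed the test. The mean over the 9 tested pan-neuronal markers was 0.54, 0.72 and 0.41 on the NAc arrays, against 1.26, 1.28 and 0.25 on the mPFC arrays. Lhx6, a factor of cortical interneurons, averaged 6.30 ± 0.49 in NAc and 6.53 ± 0.98 in mPFC. Camk2a, a kinase subunit of excitatory neurons, measured 1.91, 0.12 and 0.27 in NAc, against 2.66, 1.12 and 2.33 in mPFC. The arrays of the regions overlapped for Lhx6 and Camk2a. Slc17a7, the glutamate transporter of cortical excitatory neurons, was not well above background on any NAc array and was so on 1 of 3 mPFC arrays, and the dopamine receptor gene Drd1 was dim on all 6 arrays, so neither was tested. Drd2 averaged -1.27 ± 1.74 in NAc and -1.11 ± 0.67 in mPFC. Ppp1r1b, the DARPP-32 protein of striatal projection neurons, averaged -0.90 ± 1.78 in NAc and -2.02 ± 0.95 in mPFC, and the arrays overlapped. Dlx5, a factor of the ventral forebrain and its interneurons, was well above background on 3 of 3 NAc arrays and on 0 of 3 mPFC arrays. That puts NAc at least 1.97-fold higher (limma, adjusted p = 0.700). Dlx5 entered the test through the NAc arrays alone, a way in that favours genes higher in NAc. Of 14 listed interneuron markers 4 were tested. Dlx5 was the 1 above 0 and the other 3 were below, with a median of -0.15. The 12 tested striatal markers had a median of 0.06, and the 9 tested cortical excitatory markers -0.35.

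The other 3 region pairs give arrays whose levels do not enter the naive wild-type difference: 10 from NAc and 10 from mPFC. They do enter the shared estimate of spread and the choice of probe. The p of the naive wild-type pair and of the other pairs are therefore not independent. Both sets of arrays also lie on the same 4 slides, each of a single region. Over the mean of those pairs limma found 35 genes past the threshold (0.159% of those tested), 3 higher in NAc (0.0136%) and 32 lower (0.146%). Of the 35, 33 had the same sign in naive wild-type microglia. Over all genes tested, 51.7% were below 0 in naive wild type and 56.0% in the other pairs. The share of all genes with the same sign in both comparisons was not determined. Of the 33, 25 also had an unadjusted p under 0.05 in naive wild type (limma), beside 5.73% in either direction over all genes tested. Of the 23 that were well above background on all arrays of both naive wild-type groups, 23 had the same sign and 16 an unadjusted p under 0.05. No gene passed the test of the difference between the naive wild-type region effect and that of the other pairs (limma, 0%), and 636 genes had an unadjusted p under 0.05 in it (2.89%).

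These calls rest on the other pairs and on single arrays. Leaving out each of the 20 other arrays in turn gave between 4 and 119 genes, and fewer than 9 genes in 16 of the 20 cases. The lowest counts, 4 genes each, came without TLR-DKO mPFC naive replicate 3, TLR-DKO mPFC R-SDS replicates 1 and 2, wild-type NAc R-SDS replicate 3 and TLR-DKO NAc naive replicate 3, and the highest without wild-type mPFC R-SDS replicate 2. The same 4 genes passed in all 20 cases, and 2 of them have a RefSeq name, Naalad2 and Taf6l. With slide as a random block (consensus correlation 0.147), 0 genes passed.

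Naalad2, a relative of glutamate carboxypeptidase II, the enzyme that cleaves N-acetylaspartylglutamate, was the gene with the largest positive difference among those called in the other pairs. In naive wild-type microglia it measured -0.31, 1.15 and -0.45 in NAc, against -5.99, -5.28 and -1.30 in mPFC. The difference was 4.32 ± 1.14 (unadjusted p = 0.00113, adjusted p = 0.684), and every NAc array lay above every mPFC array. In the other 3 pairs it was 4.36 ± 0.63 (limma, adjusted p = 0.00637), and the adjusted p stayed at or below 0.0270 with each of the 20 arrays left out. Naalad2 was well above background on 13 of 13 NAc arrays and on 2 of 13 mPFC arrays, and it entered the test through the NAc arrays alone. Over all groups its level ran from -2.55 to 1.73 on NAc arrays and from -5.99 to -1.30 on mPFC arrays, so the regions overlapped. Within naive wild type the difference was 5.33 on the first scan day and 1.64 on the second, where the single mPFC array was the brightest of the 3 for this gene.

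**Figure D4:**
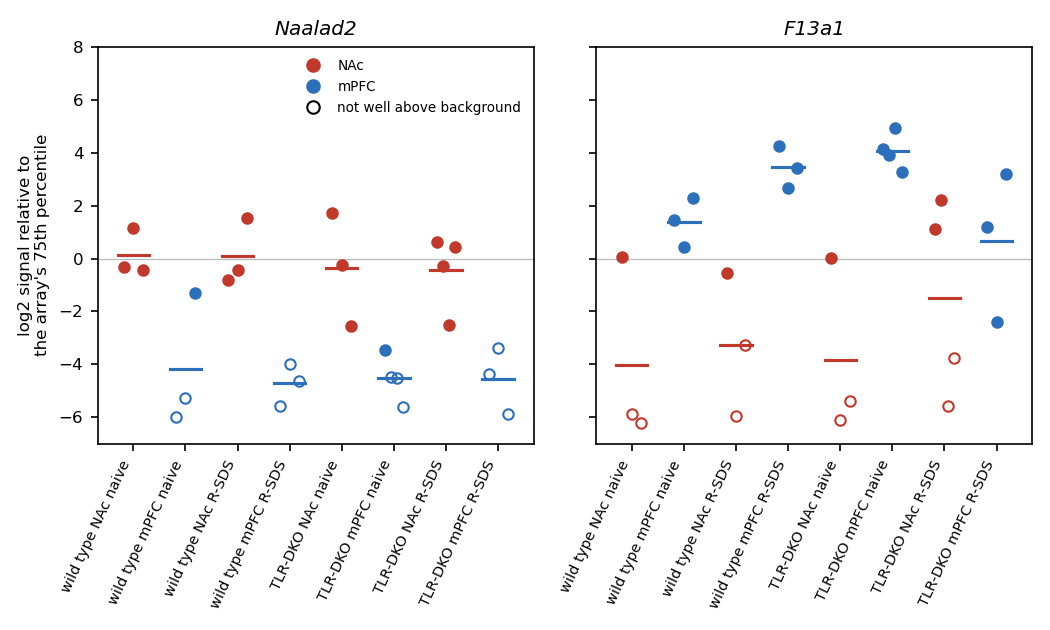
Naalad2 and F13a1 on all 26 arrays, with NAc groups in red, each left of the mPFC group (blue) of the same genotype and treatment. The vertical axis is log2 signal above or below that array's 75th percentile, lines are group means, and open circles were not well above background. Naalad2 was well above background on 13 of 13 NAc and 2 of 13 mPFC arrays, and F13a1 on 5 of 13 NAc and 13 of 13 mPFC arrays.

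RefSeq promoter sequence is shown for these 2 genes, since they had the largest differences in either direction among the named genes called in the other pairs. Each window runs from 250 bases before to 50 after a RefSeq transcription start on build GRCm38.p6. RefSeq lists a pair of starts for each gene, and the one farther upstream is printed, 5′ to 3′ on the gene's strand, with the PU.1-type core GAGGAA in capitals. Both strands were searched, and 28.3% of 32851 windows of this length hold the motif. The windows are Naalad2 at chr9:18397489-18397788 (minus strand) and F13a1 at chr13:37050195-37050494 (minus strand).
Naalad2: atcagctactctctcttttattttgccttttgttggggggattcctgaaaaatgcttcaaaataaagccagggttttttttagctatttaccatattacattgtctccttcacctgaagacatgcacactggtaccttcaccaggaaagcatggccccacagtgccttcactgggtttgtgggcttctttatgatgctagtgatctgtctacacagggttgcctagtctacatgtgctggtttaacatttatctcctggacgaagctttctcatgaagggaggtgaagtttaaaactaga
F13a1: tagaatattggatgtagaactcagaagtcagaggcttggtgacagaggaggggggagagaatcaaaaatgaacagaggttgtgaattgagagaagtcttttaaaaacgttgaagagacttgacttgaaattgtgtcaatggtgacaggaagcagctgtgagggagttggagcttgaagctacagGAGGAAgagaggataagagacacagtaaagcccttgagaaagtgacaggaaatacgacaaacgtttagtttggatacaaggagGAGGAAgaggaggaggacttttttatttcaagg
The F13a1 window holds 2 copies of the core and the Naalad2 window 0. Such matches describe letters in these windows and not binding.

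Taf6l, a subunit of histone acetyltransferase complexes, measured -2.88, -2.85 and -2.56 in NAc, against -1.79, -2.19 and -1.80 in mPFC. The naive wild-type difference was -0.84 ± 0.39 (unadjusted p = 0.0441, adjusted p = 0.871), and in the other 3 pairs it was -1.43 ± 0.22 (limma, adjusted p = 0.00839). Every NAc array lay below every mPFC array in naive wild type, and the difference was -0.89 on the first scan day and -0.90 on the second. With 1 array left out of the other pairs, its adjusted p stayed at or below 0.0371.

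Of the 26 genes called in the other pairs that have a RefSeq name, 24 had the same sign in naive wild type. With an unadjusted p under 0.05 there as well (limma), the count was 17. All 26 were named because they passed in the other pairs, after their values were seen. Dmrtb1, a DM-domain transcription factor known from germ cells, measured 0.83, 2.35 and 1.15 in NAc, against 0.07, -0.16 and -0.49 in mPFC, a difference of 1.64 ± 0.44, and was 1.25 ± 0.24 higher in the other pairs (adjusted p = 0.0463). Mapk11, the p38-beta stress kinase, measured -3.28, -2.91 and -3.43 in NAc, against -2.19, -2.05 and -2.28 in mPFC, a difference of -1.03 ± 0.32, and was at -0.99 ± 0.18 in the other pairs (adjusted p = 0.0412). Pomp, the proteasome maturation protein, was the brightest of those lower in NAc, with 4.62, 4.30 and 4.57 in NAc, against 5.29, 5.55 and 4.90 in mPFC. A second Pomp probe, well above background on all 6 arrays, went the other way at 0.25. For all 3 genes the regions did not overlap in naive wild type.

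Neurog1, a proneural factor, stood at -1.55 ± 0.48 in naive wild type and at -1.54 ± 0.26 in the other pairs (adjusted p = 0.0378). It was not well above background on any naive wild-type NAc array, and mPFC was at least 2.16-fold brighter there. Neurog1 thus entered the test through the mPFC arrays alone. Cdca5, the cohesion factor sororin, stood at -1.07, Onecut2, a homeodomain factor, at -1.20, and H2ab2, a histone variant unrelated to the class II genes, at -1.09 in naive wild type. Chd3, a chromatin remodeller, was at -0.01 ± 1.39 in naive wild type and at -4.29 in the other pairs. Clec4n, the fungal receptor dectin-2, was at 1.58 ± 0.98 in naive wild type and at -2.83 in the other pairs. Among the 20 genes of smallest p in naive wild type, 16 had the same sign in the other pairs. Ppp1r16b was at 0.20, Hilpda at -0.71 and Rsad1 at 1.11 there, so these 3 were small or of the other sign in the other pairs.

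**Figure D5:**
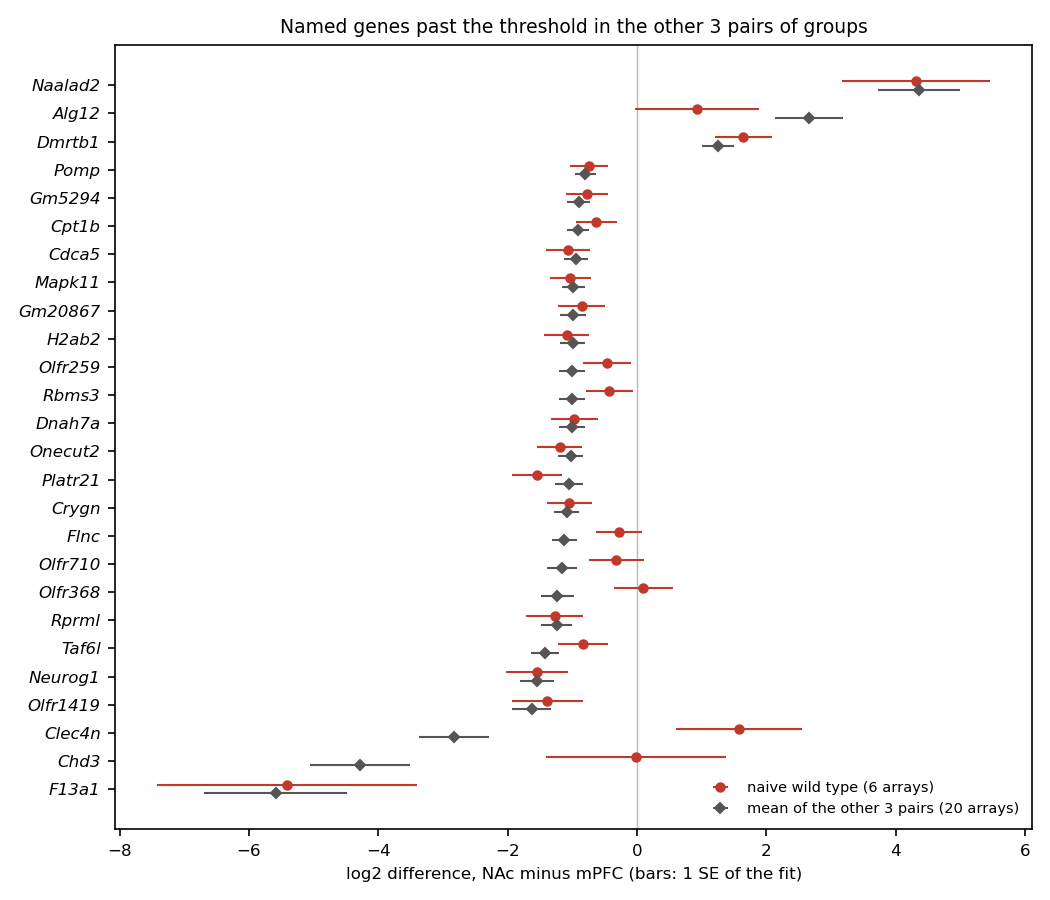
The 26 RefSeq-named genes past the threshold in the mean of the other 3 region pairs, with their log2 difference, NAc minus mPFC, in naive wild-type microglia (red circles, 6 arrays) and in the other pairs (grey diamonds, 20 arrays). Bars are 1 SE of the fit. The 2 estimates lie on the same side of 0 for 24 of the 26 genes, and Clec4n and Olfr368 are the exceptions.

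Most of the genes called in the other pairs were dim. Their median level over all arrays was -2.20, against -0.20 over all genes tested. Of the 35 calls, 19 fell in the dimmest of 5 equal bins of genes by level and 1 in the brightest. In naive wild type the median difference over the dimmest bin was -0.23 and over the brightest bin 0.09, and in the other pairs it was -0.23 and -0.06. The part of signal level and of slide in the calls lower in NAc was not tested.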

How the data were processed

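The deposited scanner files hold spot intensity on a linear scale from 1-colour Agilent arrays, written by Feature Extraction (version 11.0.1.1) per the submitters' processing notes. The processed signal used here was already background-subtracted per the file headers. The deposited matrix holds log2 values for which the labels give neither scale nor centring nor direction. Across probes its columns had an r of 1 with log2 of the processed signal and a constant offset of at most 0.0619, and its column medians ran from -2.90 to -2.20. It served as an alternative.

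Of 62976 spots, 59305 were not controls and carried 55681 probes. Dropping outlier spots took away 108 probes, and saturation affected 0 spots. Spots of a probe were averaged, and log2 minus the array's 75th percentile was the value. Of 29744 probes with a RefSeq-style accession, 27980 took a gene name from RefSeq (GRCm38.p6), and the other 27593 probes kept the file's name. The file headers name another build, so no probe coordinates are given. A probe was tested if it was well above background on 3 arrays of NAc or of mPFC naive wild type, and each gene was represented by its brightest such probe, by mean over the 26 arrays. The test thus covered 21988 genes, 12728 of them named: 18318 passed through both regions, 1669 through NAc alone and 2001 through mPFC alone. The number of arrays limits the precision.

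limma 3.58.1 in R 4.3.3 fitted 8 group means to all 26 arrays (lmFit, then eBayes, with two-sided tests), so that all groups share one estimate of the spread, and p was adjusted by Benjamini-Hochberg over all genes tested. The mean of the other 3 region pairs, and its difference from the naive wild-type effect, were contrasts of the same fit. The fit was tested on simulated data. The text names, for each direction, the 10 RefSeq-named genes of smallest p whose arrays do not overlap, the members of each list farthest from 0, a set of microglial and neuronal genes always given, and the genes called in the other pairs. The members and the gene lists were chosen with earlier results of these data known, so they are a description. Normalization, background, filter, probe, variance, sample, scan day, slide and replicate alternatives were run. Some genes are not reported here.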

Additional observations from a re-analysis of the deposited data

How the results depend on the processing

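For naive wild-type NAc against mPFC, 0 genes passed in either direction under the main settings and under each alternative run, apart from the single lower gene, 1, without NAc replicate 3 (leaving out each of the 6 arrays in turn gave 0 higher and 0 to 1 lower). At an unadjusted p under 0.05, where the main count was 1261, it was 741 with probes well above background on all 6 arrays, 747 within scan day 2, 1931 with array weights, 2158 within scan day 1 and 885 to 1829 with 1 of the 6 arrays left out. The test of the difference between region effects gave 0 genes, and 1 within scan day 1 (Rnf141, adjusted p = 0.00988). All 20 tested genes kept their sign and stayed short of the threshold wherever they had a value. For the mean of the other 3 pairs, with 3 genes higher and 32 lower in the main fit, the counts higher and lower were 1 and 8 with quantile normalization, 1 and 5 with median centring, 1 and 5 with normexp on the median signal (chosen after seeing the data), 1 and 5 with a trended robust variance, 2 and 8 with no filter, 2 and 20 with all 6 arrays well above background, 16 and 106 with array weights, 13 and 146 with scan day as a block, 2 and 4 without the 2 arrays that stand apart (replicate 3 of R-SDS wild-type mPFC and replicate 1 of naive TLR-DKO mPFC), 0 and 0 within scan day 1, 0 and 1 within scan day 2, and 0 and 0 with slide as a random block. Leaving out each of the 20 other arrays, also chosen after seeing the data, gave 1 to 16 higher and 3 to 103 lower. Fewer arrays enter the within-day fits. The causes of the other shifts were not tested.

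With the replicate number as a block, the counts were 0 higher, 0 lower and 0 for the difference of region effects, and 3 higher and 35 lower in the other pairs, of which 27 were among the 35 genes of the main fit. Whether the same numbers pair the samples cannot be decided from so few arrays. The deviations of NAc and mPFC arrays with the same number had an r of 0.159, -0.007 and 0.211, and not every pair was above 0.1. With different numbers r ran from -0.216 to 0.059. The same-number arrays of replicates 1 and 3 were also read on the same day, and those of replicate 2 were not. Normexp on the mean signal was not run, since it needs a column not analysed here. Among list medians 75 of 1080 values moved by more than the spread between arrays, as did 155 of 3941 values of described genes. The perivascular macrophage median ran from -2.93 (without NAc replicate 1) to -1.32 (normexp), and scan day as a block gave -1.81. For probes not well above background the arrays give only a bound.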

Other observations

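Chemoreceptor genes, the Olfr and Vmn families of odorant and pheromone receptors, are not known for a role in microglia and made up 4 of the 35 genes called in the other 3 pairs, which is 1.45% of the 275 tested, beside 0.159% of all 21988 genes tested. In naive wild-type microglia 166 of them (60.4%) were below 0, beside 51.7% of all genes tested, and their median difference, NAc minus mPFC, was -0.14. In the other pairs 168 (61.1%) were below 0, beside 56.0% of all genes tested, with a median of -0.11. Their median level over all arrays was -2.15, and the dimmest of 5 equal bins of genes by level had a median difference of -0.23 in both comparisons. That bin held 19 of the 35 calls among its 4398 genes, and the next bin 12 among 4397. The share of 0.159% is therefore not matched to the level of these receptors. The chemoreceptor group was chosen after its values were seen, and no test was run on it.

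Of the transcription factors of the forebrain, 7 of 16 listed genes were tested, and 0 were above 0 in naive wild type, with a median of -0.38. Without the filter 4 of the 16 were above 0, with a median of -0.22. Six3, a factor of the developing striatum and eye, averaged -1.58 ± 0.82 in NAc and -0.76 ± 0.72 in mPFC, and its arrays overlapped. Eif2s3y, a Y-linked translation factor gene, measured -0.35, 0.67 and 0.39 in NAc, against -1.17, -0.80 and -1.33 in mPFC, while Uty, on the same chromosome, measured -2.17, -1.43 and -2.53 in NAc, against -1.22, -1.19 and -0.70 in mPFC. The 2 genes differed in opposite directions, and neither passed the test.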
